A study of Homo sapiens with 9 samples.

Results

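Interferon-stimulated genes are the genes that cells switch on when an interferon binds its receptor. They were examined here as a fixed set of 44 genes, found by symbol among the 28216 genes of the count table that the study deposited, and all 44 symbols were present. RNAseq libraries came from established prostate cancer lines, with 3 libraries in each of 3 groups. PC3 cells, a line from a bone metastasis that does not depend on androgen, were untreated and grown in F12K medium with serum. LNCaP cells (clone FCG), a line from a lymph node metastasis that responds to androgen, were kept in RPMI without phenol red and with charcoal-stripped serum, and then received 10 nM androgen or 0.01% ethanol as vehicle for 48 h. The labels name the androgen DHT and the main text of the study names R1881, so it is called androgen here. Cell line, medium and treatment differed together between PC3 and LNCaP cells and cannot be told apart. The labels do not say whether the 3 libraries of a group came from separate cultures, and the p-values measure the spread between these libraries, which may be technical.

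Type I interferons bind IFNAR1 and IFNAR2, whose kinases JAK1 and TYK2 phosphorylate STAT proteins. These join IRF9 and bind a DNA element called the interferon-stimulated response element, whereas interferon gamma acts mainly on the gamma-activated sequence. The induced proteins block steps of viral growth: OAS proteins sense double-stranded RNA, IFIT proteins hold foreign RNA, IFITM proteins sit in membranes that viruses must fuse with, and ISG15 is a ubiquitin-like protein joined to other proteins.

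The response element in front of these genes shows what the set shares in sequence. RefSeq promoter windows of 300 bases (250 before the gene start and 50 after it, GRCh38.p14) were given for 35 of the 44 genes. Its core, GAAA followed by any 2 bases and GAAA again and searched on both strands, was present in a window of 25 of these 35 genes (71.4%), against 4.38% of the 27305 genes with a window. The gamma-activated sequence TTCNNNGAA, which reads the same on both strands, was present for 12 of 35 genes (34.3%), against 9.38% of all genes. The 10 genes whose windows lacked the core were CMPK2, HERC6, IFI16, IFI35, IRF1, IRF9, OAS1, SAMD9L, SP110 and XAF1. IFIT2, IFITM2, MX2, OAS2, OASL, IRF7, USP18, TRIM22 and GBP2 had no window. A match of letters is a description and not evidence that a factor binds there. The 250 bases before the start are shown 5′ to 3′ on the strand of the gene for 4 members, with each core in capitals. ISG15 had the highest level per length in every group, IFIT1 was far higher in PC3 cells, HERC5 rose with androgen and OAS3 fell with androgen. The windows lie at chr1:1013247-1013496 (plus strand), chr10:89392373-89392622 (plus strand), chr4:88456869-88457118 (plus strand) and chr12:112938224-112938473 (plus strand).
ISG15: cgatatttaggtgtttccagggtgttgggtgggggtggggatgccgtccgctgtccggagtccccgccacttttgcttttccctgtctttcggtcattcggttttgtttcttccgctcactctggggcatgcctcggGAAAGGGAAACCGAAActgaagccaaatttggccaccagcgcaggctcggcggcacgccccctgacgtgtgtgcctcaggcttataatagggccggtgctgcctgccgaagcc
IFIT1: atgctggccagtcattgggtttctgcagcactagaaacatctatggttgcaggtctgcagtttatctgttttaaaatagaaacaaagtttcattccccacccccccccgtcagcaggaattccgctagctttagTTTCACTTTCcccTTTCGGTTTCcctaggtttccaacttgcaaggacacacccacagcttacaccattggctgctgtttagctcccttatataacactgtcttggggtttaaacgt
HERC5: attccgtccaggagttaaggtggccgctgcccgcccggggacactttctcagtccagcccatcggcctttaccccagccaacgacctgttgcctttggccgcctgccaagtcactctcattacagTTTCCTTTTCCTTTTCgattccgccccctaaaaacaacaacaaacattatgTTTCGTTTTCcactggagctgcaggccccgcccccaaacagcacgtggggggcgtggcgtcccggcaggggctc
OAS3: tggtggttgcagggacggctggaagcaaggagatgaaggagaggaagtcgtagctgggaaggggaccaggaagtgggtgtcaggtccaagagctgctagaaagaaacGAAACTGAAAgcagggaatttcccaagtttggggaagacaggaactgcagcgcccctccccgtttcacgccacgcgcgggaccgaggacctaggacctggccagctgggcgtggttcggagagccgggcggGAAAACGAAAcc
The 2 cores of ISG15 overlap each other, as do the first 2 of the 3 cores of HERC5, and on the strand shown a core of the other strand reads as TTTC, 2 bases and TTTC. HERC5 and OAS3 both carried the core and moved in opposite directions with androgen. Of the other members called between androgen and vehicle, ISG20 carried the core, HERC6 and CMPK2 lacked it and GBP2 had no window. Whether the element had a part in these changes was not tested.

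Libraries held between 17397706 and 25640325 counts on genes. The 44 genes together reached 1086, 1598 and 1795 CPM (counts scaled to the library total with TMM factors over all 9 libraries) in PC3 replicates 1, 2 and 3. The sum lay between 413 and 457 CPM in androgen-treated LNCaP cells and between 330 and 349 CPM in vehicle-treated LNCaP cells, so the 3 groups did not overlap. Markers followed the labels. The luminal list (KLK2, KLK3, TMPRSS2, FOLH1, KRT8, KRT18, EPCAM) summed to 463 to 483 CPM in PC3 cells, with no KLK2 count, and to 2699 to 11357 CPM in LNCaP cells. The androgen-response list (KLK2, KLK3, FKBP5, TMPRSS2) summed to 9268 to 10058 CPM with androgen and to 806 to 1048 CPM with vehicle. Leukocytes express many interferon-stimulated genes, and the leukocyte genes PTPRC, CD3E, CD14, LYZ and ITGAM each stood at no more than 0.277 CPM in any library.

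**Figure D1:**
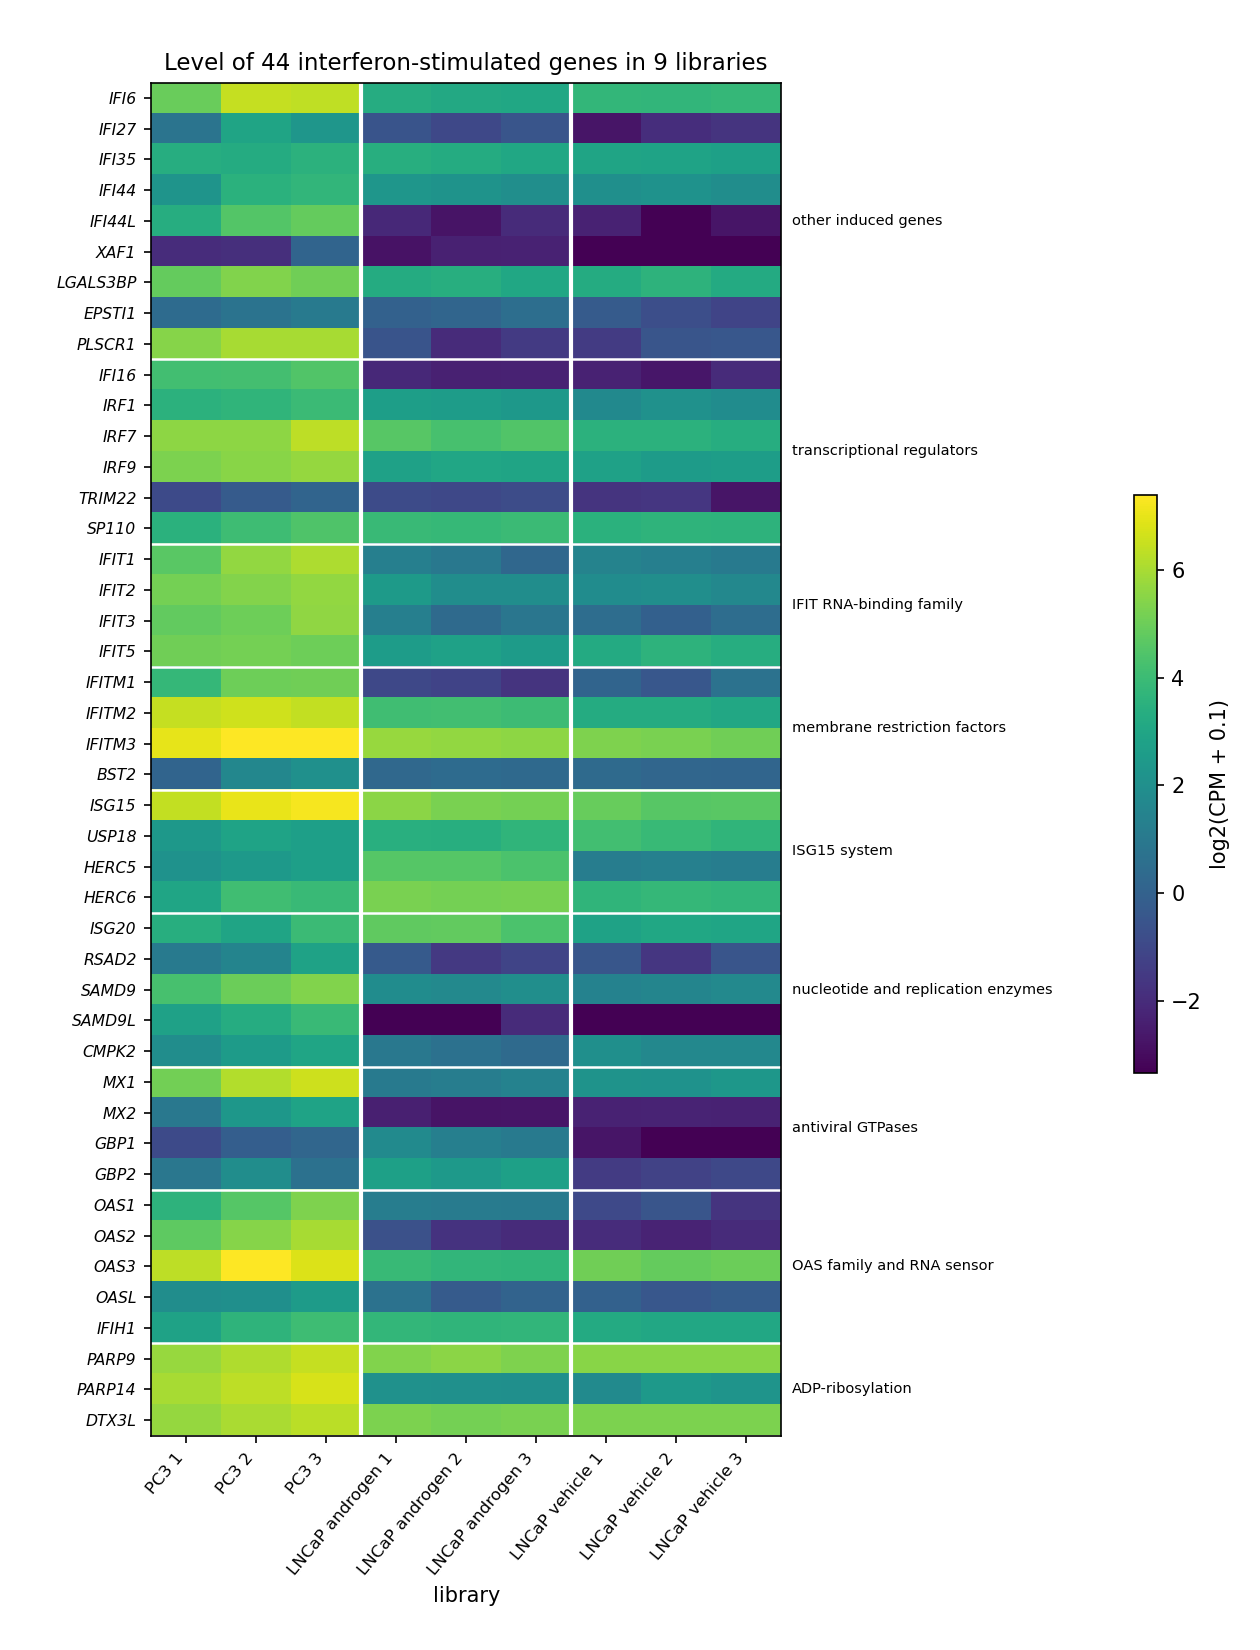
Level of the 44 genes (rows, grouped by role) in the 9 libraries (columns), as log2(CPM + 0.1), with yellow for high and dark blue for low. The PC3 columns are brighter for most rows, PC3 replicate 1 is darker than replicates 2 and 3, and the HERC5, HERC6, ISG20, GBP1 and GBP2 rows are brightest in androgen-treated LNCaP cells.

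Per kb of exon, ISG15 was the most abundant member in every group, at 140 CPM per kb in PC3, 45.7 in androgen-treated and 30.4 in vehicle-treated cells. ISG15 reached 84.7, 129 and 150 CPM in the PC3 libraries, 46.2, 37.1 and 35.5 CPM with androgen and 30.0, 24.5 and 24.6 CPM with vehicle. The groups did not overlap. IFI6, a mitochondrial protein that limits cell death, was second in PC3 cells with 70.9 CPM per kb. Its PC3 libraries held 30.4, 86.7 and 82.0 CPM, against 8.12 to 9.94 CPM with androgen and 13.3 to 13.8 CPM with vehicle. IFITM2 and IFITM3, which hinder fusion of viruses with endosomes, followed with 55.9 and 53.4 CPM per kb in PC3 cells. IFITM2 held 87.6, 96.5 and 85.1 CPM in PC3, 16.8, 17.6 and 15.9 CPM with androgen and 9.44, 9.55 and 8.53 CPM with vehicle. IFITM3 held 126, 163 and 167 CPM in PC3, 52.7, 50.3 and 47.5 CPM with androgen and 39.2, 37.1 and 33.8 CPM with vehicle. For both genes every PC3 library lay above every LNCaP library, and every androgen-treated library above every vehicle-treated one. Of the 74-nt stretches of their transcripts, 8.21% (IFITM2), 6.40% (IFITM3) and 5.88% (IFITM1) also occur outside the gene. The gene counts leave out reads that map to several places, so these levels could be too low. IRF7, the factor that drives interferon gene transcription, was the fifth member in PC3 and androgen-treated cells, with 22.2 and 8.43 CPM per kb. DTX3L, a ubiquitin ligase that works with PARP9, took the fourth place in vehicle-treated cells with 6.65 CPM per kb. DTX3L held 38.996, 35.5 and 37.7 CPM with androgen, 38.3 to 38.5 CPM with vehicle and 51.4, 65.4 and 76.4 CPM in PC3.

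The first comparison, PC3 against androgen-treated LNCaP cells, asked how the lines differ. A gene was tested where it passed 3 CPM in at least 3 of the 6 libraries, and was called at a fold of 2 or more with an edgeR quasi-likelihood adjusted p-value below 0.05. Of the 36 members tested, 26 were higher and 4 lower in PC3 cells. Over all 12541 genes tested, 46.0% were called, 24.0% higher and 22.1% lower. The median log2 fold change of the tested members was 2.23, against 0.04 over all genes tested. A member can pass the filter through the PC3 libraries alone, so the tested members do not stand for the whole set, and in bulk RNA a lower level cannot be told apart from fewer expressing cells.

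The genes that stood furthest apart were near 0 in LNCaP cells. For genes with at most 3 counts in each library of the low group, the ratio of summed counts is given with an exact 95% interval that covers counting error only. SAMD9L, a restriction factor that slows protein synthesis, held 6.89, 9.78 and 15.1 CPM in PC3 cells. It had 782 counts in PC3 and 3 in androgen-treated cells, a ratio of 221 (75.3 to 1073) in which all 3 low counts lay in androgen replicate 3, and no count in vehicle-treated cells, which made it at least 201-fold higher in PC3. IFI44L, an interferon-induced protein of the cytoplasm, held 9.96, 22.7 and 28.5 CPM in PC3 and at most 0.151 CPM in LNCaP cells. Its ratio was 181 (87.6 to 451) against androgen and 385 (132 to 1870) against vehicle. IFI16, a DNA sensor, held 17.8, 18.1 and 22.1 CPM in PC3 and 0.0549 to 0.152 CPM in LNCaP cells, with ratios of 173 (83.6 to 430) and 184 (84.3 to 502). These 3 genes were thus close to absent in LNCaP cells with or without androgen.

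PLSCR1, a membrane protein that limits viral entry, held 43.05, 63.8 and 62.9 CPM in PC3 and 0.148 to 0.660 CPM in both LNCaP groups. The log2 fold change was 7.38 ± 0.33 (SE) against androgen (edgeR adjusted p = 3.25e-07) and 6.81 ± 0.28 against vehicle (edgeR adjusted p = 2.62e-07). OAS2, an enzyme that makes 2-5A, held 26.05, 43.05 and 63.2 CPM in PC3 and 0.537, 0.197 and 0.151 CPM with androgen. The difference was 7.16 ± 0.51 (edgeR adjusted p = 3.81e-06), and against vehicle, where no library had more than 3 counts, the ratio was 314 (159 to 728). IFITM1, the plasma membrane member of the IFITM family, held 14.0, 32.1 and 33.1 CPM in PC3, 0.403, 0.346 and 0.202 CPM with androgen and 0.996, 0.659 and 1.52 CPM with vehicle. It differed by 6.34 ± 0.48 (edgeR adjusted p = 5.87e-06) and 4.64 ± 0.44 (edgeR adjusted p = 2.48e-05). OAS1 had 305, 533 and 1000 counts in PC3, 50, 43 and 40 with androgen and 8, 11 and 4 with vehicle. It differed by 3.54 ± 0.44 (edgeR adjusted p = 0.000115) and 5.95 ± 0.61 (edgeR adjusted p = 3.73e-05). None of these genes had overlapping groups between PC3 and LNCaP cells.

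The low LNCaP levels were set beside those of genes that mark PC3 cells. CAV1, CD44 and VIM, mesenchymal genes that PC3 cells express, stood in single LNCaP libraries at 0 to 0.776%, 0.0894 to 0.657% and 0.104 to 1.01% of their PC3 mean. IFI16 stood at 0.284 to 0.789%, IFI44L at 0 to 0.743%, OAS2 at 0.249 to 1.22% and PLSCR1 at 0.262 to 1.17%. The ranges overlap those of the mesenchymal genes, and the part of stray PC3 RNA in the LNCaP levels was not tested.

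Counts by role are to be read against the 24.0% (androgen) and 22.2% (vehicle) of all genes tested that were called higher in PC3 cells. All 4 IFIT genes were called higher in PC3 cells in both comparisons. Their log2 fold changes against androgen were 4.71 for IFIT1, 4.34 for IFIT3, 3.28 for IFIT2 and 2.44 for IFIT5. IFIT5, which binds RNA with a 5′ phosphate, was the most even across PC3 libraries (33.0, 35.6 and 32.7 CPM). All 3 tested IFITM genes were called higher in both comparisons, and the fourth membrane factor, BST2 (tetherin), was not tested and overlapped between the groups, with 0.984 to 4.07 CPM in PC3 and 1.02 to 1.23 CPM in LNCaP cells. IFIT1, IFIT3, IFITM1, OAS1, OAS2 and OASL passed 3 CPM only in the PC3 libraries, so they could hardly have been called lower there. Of the OAS family and the RNA sensor IFIH1 (MDA5), 4 of 5 were called higher in both comparisons. The exception was IFIH1, with 7.08, 12.4 and 16.4 CPM in PC3, 12.8 to 13.5 CPM with androgen and 8.45 to 9.12 CPM with vehicle. Its log2 difference was -0.14 ± 0.27 (edgeR adjusted p = 0.63) and 0.48 ± 0.27 (edgeR adjusted p = 0.139).

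Of the transcriptional regulators, IFI16, IRF1, IRF7 and IRF9 were called higher in both comparisons. IRF9, the DNA-binding partner of STAT proteins, differed by 2.58 ± 0.13 against androgen and 2.86 ± 0.14 against vehicle (edgeR adjusted p = 4.98e-07 and 5.62e-07). SP110, a nuclear body protein, was not called (0.13 ± 0.21 and 0.49 ± 0.21, edgeR adjusted p = 0.563 and 0.0587). TRIM22 was not tested, with at most 0.988 CPM in any library, and in LNCaP cells a large share of the few reads on it, 40.0% with androgen, lay on the other strand. MX1, a GTPase that blocks viral nucleocapsids, was 4.85 ± 0.40 higher than with androgen and 3.89 ± 0.38 higher than with vehicle (edgeR adjusted p = 9.86e-06 and 2.71e-05). MX2, not tested, had 348 counts in PC3 against 4 with androgen, a ratio of 73.7 (28.5 to 272). PARP14, an ADP-ribosyltransferase, was 4.38 ± 0.21 and 4.28 ± 0.24 higher (edgeR adjusted p = 4.76e-07 and 1.12e-06). Its partners PARP9 and DTX3L differed by 0.73 and 0.78 against androgen and by 0.67 and 0.77 against vehicle, all with edgeR adjusted p-values of at most 0.00459 and all below the fold limit. The ends of PARP9 and DTX3L overlap on opposite strands, as do CMPK2 and RSAD2, and the counts used here are of 1 strand.

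Further members higher in both PC3 comparisons were IFI44, a relative of IFI44L (1.15 ± 0.36 and 1.31 ± 0.37, edgeR adjusted p = 0.0185 and 0.0105), SAMD9, the neighbour of SAMD9L (3.13 ± 0.29 and 3.44 ± 0.30), OASL, an OAS-like protein without enzyme activity (2.04 ± 0.30 and 2.55 ± 0.25), and LGALS3BP, a secreted glycoprotein (1.86 ± 0.16 and 1.77 ± 0.16). CMPK2 was called against androgen (1.92 ± 0.32, edgeR adjusted p = 0.00061) and, at 0.80 ± 0.28, not against vehicle. IFI35 was called in none of the comparisons and lay between 6.65 and 11.7 CPM in all libraries. Members too scarce for the test were BST2, TRIM22, MX2, GBP1, IFI27, RSAD2, EPSTI1 and XAF1, joined by GBP2 against vehicle. IFI27 held 1.61, 7.52 and 4.86 CPM in PC3, 0.395 to 0.605 CPM with androgen and 0.0524 to 0.203 CPM with vehicle. RSAD2, a radical enzyme that makes a chain-ending nucleotide, held 2.01, 2.78 and 7.11 CPM in PC3 and 0.220 to 0.716 CPM in LNCaP cells. XAF1, a partner of the cell death inhibitor XIAP, had 4, 4 and 25 counts in PC3, so replicate 3 held most of them. Its ratio was 5.59 (2.17 to 18.3) against androgen, and it was at least 8.50-fold higher than with vehicle. For IFI27 and RSAD2 PC3 libraries lay above all LNCaP libraries, whereas EPSTI1 overlapped (1.22 to 1.98 CPM in PC3 and 0.895 to 1.36 CPM with androgen). XAF1 had 1, 2 and 2 counts with androgen, so the PC3 libraries with 4 counts lay too near these to be ordered. The share of all genes whose groups do not overlap is not given here.

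The ISG15 system divided. ISG15 was 1.61 ± 0.21 and 2.22 ± 0.21 higher in PC3 cells (edgeR adjusted p = 0.000165 and 2.35e-05), whereas USP18, the protease that removes ISG15 from proteins and restrains the interferon receptor, was lower. USP18 held 5.12, 7.26 and 6.48 CPM in PC3, 10.7, 10.5 and 12.9 CPM with androgen and 17.7, 14.8 and 12.8 CPM with vehicle. Its difference was -0.85 ± 0.16 against androgen (edgeR adjusted p = 0.00135, below the fold limit) and -1.24 ± 0.18 against vehicle (edgeR adjusted p = 0.000282). The PC3 libraries lay below all LNCaP libraries. For USP18, 40.1% of the 74-nt stretches are repeated outside the gene, so its level is uncertain.

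The second comparison, PC3 against vehicle-treated LNCaP cells, shares the PC3 libraries with the first. Of 35 members tested, 26 were higher and 1 (USP18) lower, where 43.2% of 12686 genes were called, 22.2% higher and 21.0% lower. The median log2 fold change was 2.32, against 0.03 over all genes. Here too a member can pass the filter through the PC3 libraries alone, so the tested members do not stand for the whole set. The 4 members called lower in PC3 than in androgen-treated cells did not hold that order here. HERC5, the ligase that attaches ISG15 to new proteins, was 2.05 lower than with androgen on the log2 scale (-2.05 ± 0.17, edgeR adjusted p = 8.45e-06) and 1.27 ± 0.19 higher than with vehicle (edgeR adjusted p = 0.000327). HERC6, its close relative, differed by -1.43 ± 0.26 (edgeR adjusted p = 0.00114) and 0.03 ± 0.27 (edgeR adjusted p = 0.917). ISG20, an RNA exonuclease, differed by -1.17 ± 0.26 (edgeR adjusted p = 0.00308) and 0.56 ± 0.25 (edgeR adjusted p = 0.0679). GBP2, a guanylate-binding protein induced by interferon gamma, differed by -1.44 ± 0.32 (edgeR adjusted p = 0.00342) and was not tested against vehicle, where PC3 libraries held 1.81, 3.70 and 1.501 CPM and vehicle-treated libraries 0.262 to 0.406 CPM.

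**Figure D2:**
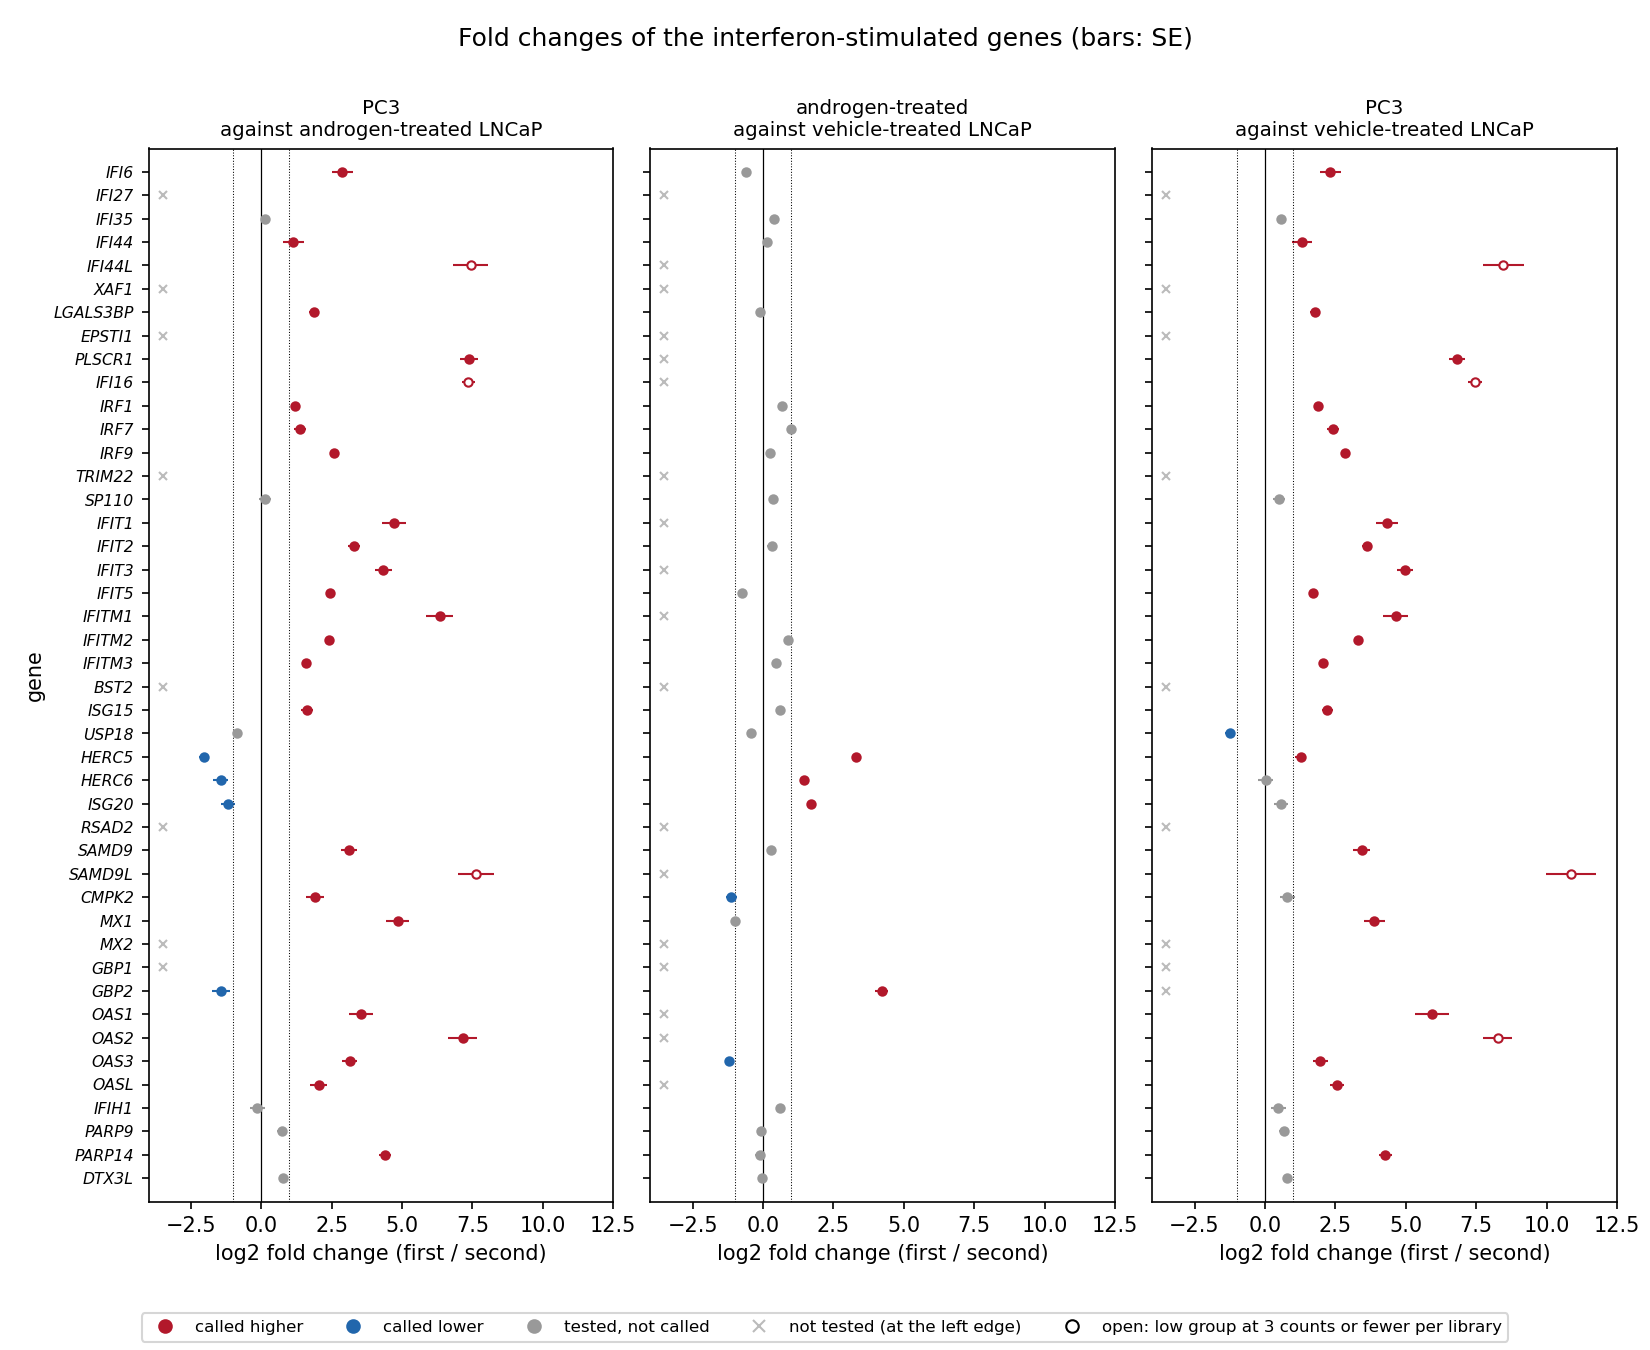
Log2 fold change (x axis; points, with bars for the SE) of each of the 44 genes (y axis) in the 3 comparisons; red is called higher, blue called lower, grey tested and not called, a cross not tested, and dotted lines mark a fold of 2. In both panels with PC3 cells 26 points are red, whereas in the androgen panel most points lie near 0 and HERC5 and GBP2 stand to the right; open points have a low group of at most 3 counts per library and their fitted position is no measured fold.

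The third comparison, androgen-treated against vehicle-treated LNCaP cells, asked what androgen changed within 1 line. Of 26 members tested, 4 rose and 2 fell, where 14.0% of 11697 genes were called, 6.54% higher and 7.49% lower. The 6 of 26 members are to be read against these shares. The median log2 fold change of the tested members was 0.31, against -0.01 over all genes.

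GBP2 rose from 0.262, 0.329 and 0.406 CPM with vehicle to 6.76, 5.38 and 6.75 CPM with androgen, a log2 change of 4.22 ± 0.23 (edgeR adjusted p = 2.60e-09). HERC5 rose from 2.20, 2.41 and 2.23 to 23.5, 23.5 and 20.1 CPM (3.29 ± 0.12, edgeR adjusted p = 4.74e-11). The androgen-treated libraries also lay above every PC3 library (4.25 to 6.48 CPM). ISG20 rose from 7.13, 8.29 and 7.77 to 27.4, 27.6 and 20.5 CPM (1.71 ± 0.12, edgeR adjusted p = 4.48e-08). HERC6, which lies next to HERC5 on chromosome 4, rose from 12.9, 14.0 and 13.1 to 37.1, 35.2 and 36.4 CPM (1.44 ± 0.07, edgeR adjusted p = 4.96e-10). None of the 4 overlapped between the treatments.

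OAS3, which also makes 2-5A, fell from 33.2, 28.6 and 31.1 to 14.6, 13.1 and 12.9 CPM (-1.19 ± 0.08, edgeR adjusted p = 2.24e-08). CMPK2, a mitochondrial nucleotide kinase, fell from 3.88, 3.07 and 3.10 to 1.84, 1.48 and 1.21 CPM (-1.14 ± 0.20, edgeR adjusted p = 0.000161). Of the OAS genes only OAS3 passed the filter on low counts in this comparison. Without androgen replicate 3 the change of CMPK2 was -1.002 on the same genes, still called, and -0.99 with the filter applied anew, no longer called. MX1 (-0.99 ± 0.15, edgeR adjusted p = 5.79e-05) and IRF7 (0.99 ± 0.10, edgeR adjusted p = 1.34e-06) lay just under the fold limit, and IFITM2 (0.87), IFIT5 (-0.74) and IRF1 (0.67) also passed the adjusted p-value alone. In all, 18 of the 26 tested members did so, 12 higher and 6 lower, where 74.9% of all genes did.

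The filter left out members that are scarce in both LNCaP groups. GBP1, the relative of GBP2, had 75, 48 and 39 counts with androgen and 1, 0 and 0 with vehicle. The ratio of the sums was 148 (26.2 to 5876, exact 95% interval), and GBP1 shares 8.63% of its 74-nt stretches with other places. With a filter on the mean (over 1 CPM across the 6 libraries), OAS1, whose counts are given above, rose by 2.39 ± 0.30 (edgeR adjusted p = 7.95e-06), and 7 members were called higher, where 7.01% of 12933 genes were. The 7 were GBP1, GBP2, HERC5, ISG20, HERC6, OAS1 and IRF7. Within the OAS family androgen-treated cells thus held more OAS1 and less OAS3.

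**Figure D3:**
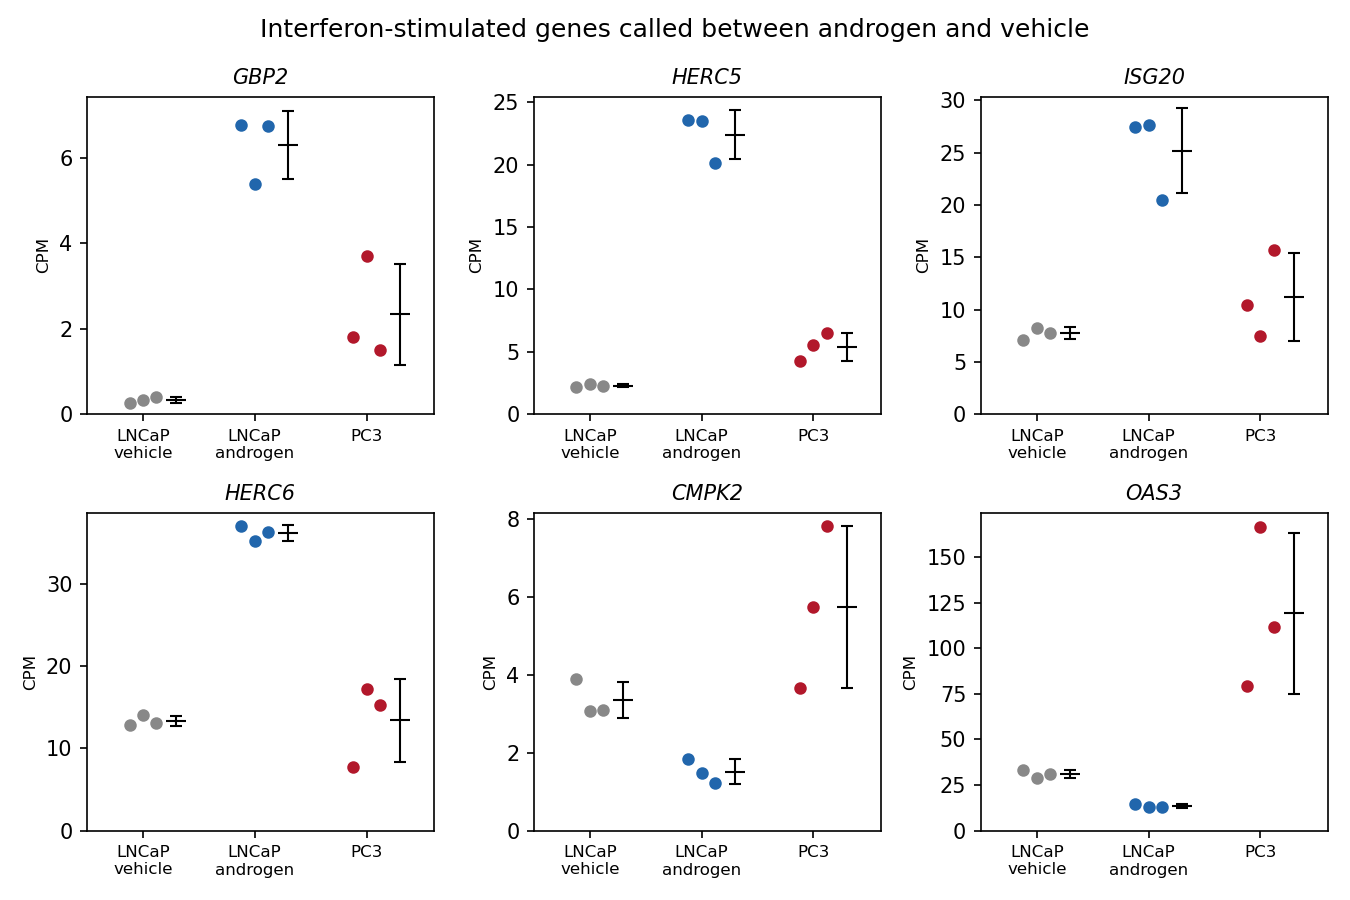
CPM (y axis, from 0) of the 6 members called between the treatments, in the single libraries of vehicle-treated LNCaP (grey), androgen-treated LNCaP (blue) and PC3 cells (red), with the mean and SD of 3 libraries in black. Androgen-treated libraries lie above the vehicle-treated ones for GBP2, HERC5, ISG20 and HERC6 and below them for CMPK2 and OAS3.

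PC3 libraries differed among themselves more for these genes than for others. Among the 43 members with at least 10 counts in each PC3 library, replicate 1 was the lowest for 37 (86.0%), against 22.5% of 13912 genes. Replicate 3 was the highest for 33 of 43 (76.7%), against 45.8% of all genes. The median coefficient of variation was 36.3% for members and 10.7% for all genes in PC3 cells. It was 10.4% and 5.51% with androgen and 8.80% and 4.98% with vehicle. Androgen-treated libraries also had an order. Among 33 members, androgen replicate 1 was the highest for 21 (63.6%), against 26.3% of all genes. Androgen replicate 3 was the lowest for 19 (57.6%), against 28.1% of all genes. On the log2 scale, the median member lay at -0.52 from the PC3 mean in replicate 1 and at 0.33 in replicate 3, whereas the median of all genes lay at -0.00494 and 0.02. Between the highest and the lowest PC3 library IFI27 varied 4.66-fold, BST2 4.14-fold, MX2 3.99-fold, RSAD2 (viperin) 3.54-fold and IFI6 2.85-fold. IFI16 varied 1.24-fold. Of 31 other interferon-stimulated genes with enough counts, replicate 1 was the lowest for 21 (67.7%) and the median coefficient of variation was 16.2%. Without PC3 replicate 1, on the genes tested with all 6 libraries, the difference of IFIH1 against androgen turned to 0.13, and ISG20 (-1.12), PARP9 (0.89) and DTX3L (0.92) stayed on their side of the fold limit. With the filter applied anew to the 5 libraries, which also changed the genes tested, these values were 0.25, -0.99, 1.01 and 1.05, so that ISG20 lost its call and PARP9 and DTX3L gained one. ISG20 also lost its call without PC3 replicate 2 (-0.95 on the same genes and -0.82 with the filter anew). IFI44, with 4.60, 11.2 and 13.2 CPM in PC3 and 3.78 to 4.84 CPM with androgen, was called against androgen although the groups overlapped. On the same genes it lost that call without PC3 replicate 3 (0.85) or androgen replicate 2 or 3 (1.16 and 1.05), and with the filter anew also without androgen replicate 1 (1.16). Its call against vehicle was lost without PC3 replicate 3 on the same genes (0.9989) and without vehicle replicate 3 with the filter anew (1.17).

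**Figure D4:**
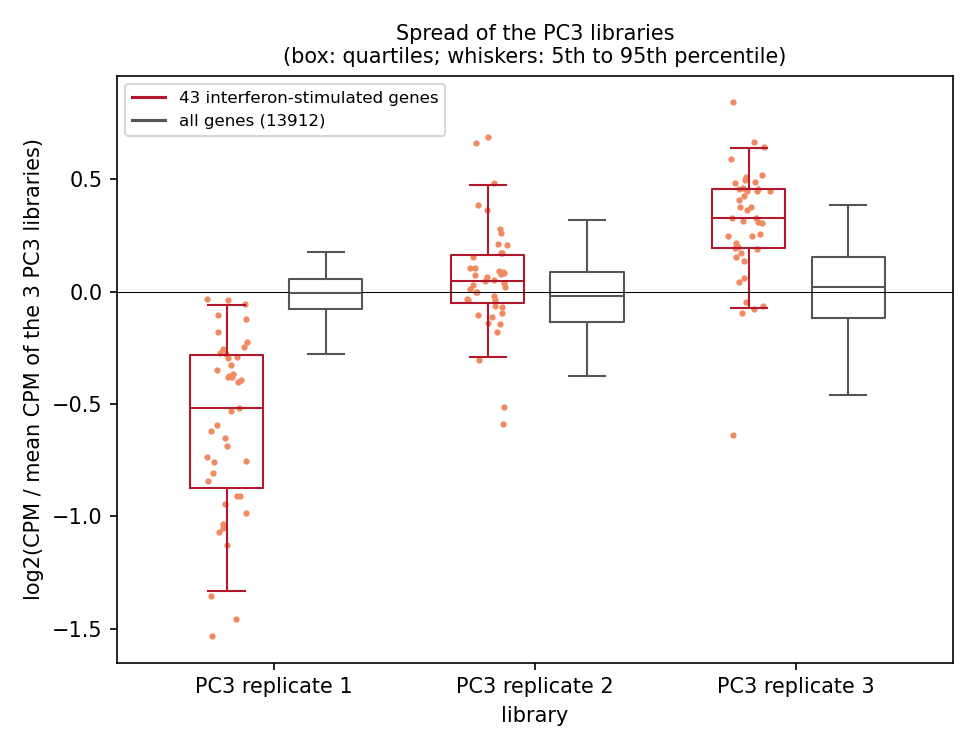
Log2 of the CPM in each PC3 library over the mean of the 3 PC3 libraries (y axis), for 43 members (red boxes, orange points) and for all 13912 genes with enough counts (grey boxes); boxes show quartiles and whiskers the 5th to 95th percentile. The members lie below 0 in replicate 1 (median -0.52) and mostly above it in replicate 3 (median 0.33), whereas the grey boxes are centred near 0.

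The remaining genes of the pathway were read from 5 lists. Of 21 interferon genes, 18 had no count in any library and none was tested. IFNE, an interferon of epithelia, had 233 counts in PC3 and none in LNCaP cells, which made it at least 65.8-fold higher than with androgen and at least 60.04-fold higher than with vehicle. IFNL1 and IFNL2 each had 1 count. Over the 96 genes of all lists, 57 were tested between PC3 and androgen-treated cells, with 21 higher and 8 lower, where 24.0% and 22.1% of all genes tested were. Against vehicle 26 of 57 were higher and 5 lower, where 22.2% and 21.0% of all genes were. Between androgen and vehicle 4 of 50 were higher and 2 lower, near the 6.54% and 7.49% of all genes.

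Of 11 receptor and JAK-STAT genes, 10 were tested. In PC3 cells 3 were called higher than with androgen and 5 than with vehicle, where 24.0% and 22.2% of all genes tested were, and 0 were called lower. Between androgen and vehicle 1 was called higher, where 6.54% of all genes were, and 0 lower. JAK1 held 98.4, 93.7 and 115 CPM in PC3, 10.3, 11.5 and 12.3 CPM with androgen and 6.40, 7.02 and 7.47 CPM with vehicle. It was 3.17 ± 0.10 and 3.90 ± 0.10 higher in PC3 (edgeR adjusted p = 6.33e-08 and 3.33e-08) and differed by 0.71 between androgen and vehicle, below the fold limit. TYK2, the kinase bound to IFNAR1, was also called higher in both PC3 comparisons (1.48 and 1.54). IFNAR1 held 110 to 121 CPM in PC3, 135 to 147 CPM with androgen and 93.0 to 98.1 CPM with vehicle, and IFNAR2 20.6 to 27.9 CPM in all libraries. Neither receptor gene was called in any comparison. IL10RB, a chain of the interferon lambda receptor, rose with androgen by 1.26 ± 0.08 (edgeR adjusted p = 1.83e-08). IFNGR2 was called higher than with vehicle (1.43) but not than with androgen (0.97).

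Of 15 sensors and relays, 11 were tested in the PC3 comparisons. Against androgen 4 were higher and 1 lower in PC3, where 24.0% and 22.1% of all genes tested were. Against vehicle 6 were higher and 0 lower, where 22.2% and 21.0% of all genes were. CGAS, which makes cGAMP on DNA, had 900 counts in PC3 and 4 and 2 in the androgen and vehicle groups, ratios of 191 (74.2 to 701) and 348 (96.0 to 2877). STING1, which binds cGAMP, was 2.66 ± 0.15 and 3.60 ± 0.11 higher in PC3 (edgeR adjusted p = 9.28e-07 and 7.15e-08). RIGI, a sensor of viral RNA, was 2.18 and 2.21 higher and was also called in both. TRIM25, which activates RIGI, was 1.75 and 1.15 higher, and TBK1, the kinase below these sensors, was lower in PC3 than with androgen (-1.39 ± 0.06, edgeR adjusted p = 2.6e-07). DHX58 (LGP2), a relative of RIGI that was too scarce for the test, ran the other way, with 1 count in PC3 against 116 with androgen and 72 with vehicle, ratios of 137 (24.1 to 5456) and 93.1 (16.2 to 3729). TRIM25, TBK1 and DHX58 were named after their values had been seen.

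Among 7 negative regulators, SOCS3, which blocks JAK kinases, had 2965 counts in PC3 and 6 with androgen, a ratio of 418 (192 to 1141). PTPN6, a phosphatase, was lower in PC3 in both comparisons (-2.19 and -1.73). PIAS1, a SUMO ligase that restrains STAT proteins, rose with androgen (1.40 ± 0.05, edgeR adjusted p = 2.79e-11).

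Of the 42 other interferon-stimulated genes, 12 of 31 tested were higher and 5 lower in PC3 than with androgen, and 13 and 4 of 31 against vehicle, to be read against the same shares of all genes (24.0% and 22.1%, and 22.2% and 21.0%). LAMP3, a lysosomal protein, had 1504 counts in PC3 and 3 and 2 in the LNCaP groups, ratios of 425 (145 to 2061) and 581 (161 to 4804). NMI, a STAT-binding protein, was 6.07 ± 0.22 higher than with androgen (edgeR adjusted p = 1.28e-07), and GBP3 was 5.22 ± 0.30 and 6.56 ± 0.20 higher (edgeR adjusted p = 1.16e-06 and 5.89e-08). APOL3 was lower in PC3 (-5.12 and -3.29) and rose with androgen (1.82). UBE2L6, the enzyme that passes ISG15 to HERC5, fell with androgen (-1.49 ± 0.19, edgeR adjusted p = 1.2e-05), as did SLFN5 (-1.36 ± 0.05, edgeR adjusted p = 1.03e-10), so that the ligase and its partner enzyme moved in opposite directions.

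CXCL10 and CXCL11, chemokines induced by interferon gamma that were singled out after their values had been seen, were too scarce for the filter. CXCL10 held 3.81, 2.42 and 1.66 CPM with androgen and 0.0524, 0.220 and 0 CPM with vehicle. CXCL11 held 4.03, 2.86 and 2.47 CPM with androgen and 0.0524, 0 and 0.203 CPM with vehicle. Without a filter the edgeR adjusted p-values were 5.43e-09 and 1.67e-10, and both were at no more than 0.0435 CPM in PC3 cells.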

How the data were processed

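RNA of 9 libraries was poly(A)-selected, prepared with the KAPA HyperPrep kit and sequenced as 74-nt single-end reads. The submitters' processing notes name cutadapt 4.1, STAR 2.7.7a and UMI-tools 1.1.2, and the genome was hg38. The authors deposited counts, whole reads per gene after removal of PCR duplicates, without normalization. All 253944 values equalled the forward-strand STAR counts, and 20.3% to 25.4% of reads were not on genes. Gene models came from GENCODE 44.

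For each comparison, a model with edgeR 4.0.16 (R 4.3.3) used only the 6 libraries compared: more than 3 CPM in at least 3 libraries, TMM factors, quasi-likelihood F test and Benjamini-Hochberg adjustment over all genes tested. SEs are the log2 fold change over the root of F. The batch term of the study's model was left out, because the batches are not named. Printed CPM were scaled with TMM factors from all 9 libraries (12843 genes). The tests were tested on simulated data. Intervals are exact binomial (Clopper-Pearson, scipy 1.17.1), and 3 counts over a group were the floor for a count of 0.

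Members and lists were chosen with earlier results of these data known. Values or ranges over the libraries of both treatments are given for members called with androgen. They are also given for most of the 6 largest rises and falls called in each PC3 comparison. The same holds for most of the 5 highest per kb in each group. Of the pathway lists, up to 3 called genes per list and comparison and some receptor and JAK-STAT genes are named. In LNCaP cells, deviations from the group mean of same-numbered libraries correlated across genes (0.54, 0.30 and 0.17), although androgen replicate 3 correlated more with vehicle replicate 2 (0.27). The numbers were judged from the counts to pair these libraries. The printed p-values have no pair term, and the replicate block is an alternative. Alternatives were DESeq2 size factors, the DESeq2 1.42.0 Wald test, the likelihood ratio test, the replicate block, other filters, the adjusted p-value alone, unstranded counts, 1 fit of all 9 libraries and leaving out each library. Some genes of the lists are not reported here.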

Additional observations from a re-analysis of the deposited data

How the results depend on the processing

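The counts of members called stayed within 1.5 times under DESeq2 size factors, the DESeq2 Wald test, the likelihood ratio test, unstranded counts and 1 fit of all 9 libraries. With the replicate number as a block, 26 members were higher and 4 lower in PC3 than with androgen, 4 rose and 2 fell with androgen, and 26 were higher and 1 lower in PC3 than with vehicle. The block changed no call of a member. PC3 libraries shared only a number with LNCaP libraries (same-number correlations of -0.07 to 0.02). Without a filter, 10 of 44 members and 10 pathway genes rose with androgen, and 15 and 9 pathway genes were lower in PC3 than with androgen and with vehicle. In either direction, 9147 of 21303 (PC3 against androgen), 2941 of 20429 (androgen against vehicle) and 8713 of 21238 genes (PC3 against vehicle) were called. Shares of all genes by direction are not given for the fit without a filter, so its counts by direction are not read as a result. With a mean of over 1 CPM, 7 members rose with androgen. With the adjusted p-value alone, 12 of 26 members rose and 6 fell with androgen. Pathway genes called were 34 higher and 13 lower (PC3 against androgen), 29 and 11 (androgen against vehicle) and 11 lower (PC3 against vehicle). In either direction these were 47 of 57, 40 of 50 and 50 of 57 pathway genes. That is near the share of all genes, 10530 of 12541, 8763 of 11697 and 10577 of 12686.

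Leaving out 1 library with the filter applied anew gave 13 to 25 members higher in PC3 than with androgen and 15 to 26 than with vehicle. The 3 fits without a PC3 library gave 13 to 16, because only 24 members passed the filter when 2 PC3 libraries were left. Over all fits with the filter anew, 4633 to 5006 of 11313 to 11697 genes were called in either direction against androgen. Against vehicle 4361 to 4593 of 11584 to 11730 were. Between androgen and vehicle 2 to 5 members rose and 1 to 2 fell, with 2 risen without androgen replicate 1 or 3 and 1 fallen without any vehicle replicate. In that comparison 1404 to 1551 of 11363 to 11541 genes were called in either direction. Pathway genes that fell with androgen were 1 to 2. After these fits had been seen, leaving out was repeated on the genes tested with all 6 libraries, and then 25 to 26 and 25 to 27 members were higher in PC3, and 4 to 5 rose and 2 to 3 fell with androgen. In either direction, 5717 to 5830 of 12541 genes (PC3 against androgen), 5415 to 5616 of 12686 (PC3 against vehicle) and 1601 to 1686 of 11697 (androgen against vehicle) were then called. Both ways of leaving out a library thus differ by the genes tested.

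Direction turned only for members that were not called. Leaving out 1 library gave, with the filter anew and on the genes of the 6-library fit, IFIH1 -0.32 to 0.25 and -0.45 to 0.13, IFI35 -0.032 to 0.33 and 0.049 to 0.24, and SP110 0.0010 to 0.46 and -0.11 to 0.34 against androgen. Between treatments it gave DTX3L -0.067 to 0.0087 and -0.075 to 0.0014, PARP14 -0.29 to -0.0059 and -0.28 to 0.0096, and LGALS3BP -0.20 to -0.0061 and -0.18 to 0.0094. HERC6 against vehicle was -0.033 with the block, -0.041 with the block and the likelihood ratio test and -0.10 to 0.40 and -0.21 to 0.30 when a library was left out. SAMD9L has a fitted difference from androgen of 7.63, which depends on the prior count, and of 10.9 without androgen replicate 3, the only androgen-treated library with a count. IRF7 was called with androgen under DESeq2 size factors (1.00). Counts of 3 or fewer in LNCaP libraries limit the ratios, and the labels name no batch.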
